A study of Mus musculus with 12 samples.

Results

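The genes described here supply acetyl-CoA for the acetylation of histones and other proteins, mainly through citrate export, or act on citrate or acetate beside that route. They are Slc25a1, Acly, Acss1, Acss2, Cs, Aco1, Idh1 and Slc13a5, chosen by function, with earlier results of these data known. They are 8 of 21851 protein-coding genes in the GENCODE M21 annotation of the mouse genome build mm10. For each gene, the peaks of all deposited lists were read over the gene body and 20000 bp on each side, called its window below.

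Histone acetyltransferases take their acetyl groups from acetyl-CoA, which does not cross the inner mitochondrial membrane. Citrate synthase (Cs) joins mitochondrial acetyl-CoA to oxaloacetate, the citrate carrier Slc25a1 exports the citrate, and ATP citrate lyase (Acly) cleaves it to acetyl-CoA in the cytosol and nucleus. Acss2 makes acetyl-CoA from acetate in the same compartments and Acss1 does so within mitochondria, while Aco1 and Idh1 convert cytosolic citrate onwards and Slc13a5 takes up citrate from outside the cell.

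Mesenchymal stem cells (MSCs), stromal cells with the capacity to become bone, cartilage or fat, were profiled by chromatin immunoprecipitation sequencing (ChIP-seq), which recovers the DNA around a chosen histone mark. The labels give bone-marrow MSCs of mice aged 3 to 5 months, cultured at 2% oxygen (hypoxia) or 21% oxygen (normoxia) and sorted on day 12. The study's methods give wild-type male C57BL/6N mice and bone pieces cultured in hypoxia, from which CD45-/TER-119-/CD140a+/Sca-1+ cells were sorted and then stayed in hypoxia or moved to normoxia for a further week. By the methods both groups began in hypoxia and the comparison is between staying there and leaving it, whereas the labels place the sort after the culture. H3K27ac, an acetyl group on histone H3 that marks promoters and enhancers in use, and H3K4me3, a methylation of the same histone that marks promoters, had 2 libraries each per oxygen level, and 4 input libraries completed the 12. Each mark at each oxygen level gave 1 pooled peak list, so no value per library, no spread between replicates and no read depth could be examined, and no difference below has a test. A mark present in fewer cells and a weaker mark in every cell cannot be told apart in such lists.

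The H3K27ac lists held 15203 peaks in hypoxia and 14832 in normoxia, and the H3K4me3 lists 14606 and 14603. The cell type was checked against marker genes. Of 10 mesenchymal markers, including Pdgfra (CD140a), Prrx1 and Cxcl12, 8 had H3K27ac at a transcription start at both oxygen levels. The exceptions were Eng and Nt5e, with H3K4me3 alone. Of 10 blood and endothelial markers, 0 had H3K27ac at a start. H3K4me3 alone was at a start in 3 of them, and 7, including Ptprc (CD45), had neither mark.

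The question put to these genes was whether their promoters and surroundings carried active marks in MSCs, and whether the called peaks differed between the oxygen levels. All 8 had H3K4me3 within 1000 bp of a coding transcription start at both oxygen levels, against 58.9% of all protein-coding genes. H3K27ac was at a start in 6 of the 8, against 36.9% of all genes. The genes with both marks were Slc25a1, Acly, Acss2, Cs, Aco1 and Idh1. Acss1 and Slc13a5, the mitochondrial acetate enzyme and the plasma membrane citrate importer, had H3K4me3 without H3K27ac.

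No window held a peak called at only 1 oxygen level. Among all protein-coding genes, 4.68% had a hypoxia-only H3K27ac peak in the same window and 1.15% a normoxia-only one. With 8 genes, 0 is close to both shares. For H3K4me3, only 2 of the 21851 genes had a hypoxia-only peak in the window and 12 a normoxia-only one. A count of 0 for that mark was therefore almost fixed in advance. The calls at these genes were thus the same in hypoxia and normoxia, and the peaks could be compared further only by position, promoter sequence and score.

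The promoter sequences of 5 of the genes are shown because the mark calls divide them. Slc25a1, Acly and Acss2, the exporter and the enzymes that make acetyl-CoA outside the mitochondrion, carried both marks. Acss1 and Slc13a5 carried H3K4me3 alone. Each line gives the 250 bases before the start annotated by RefSeq (GRCm38.p6, the assembly named mm10), read 5′ to 3′ on the strand of the gene. Capitals mark ACGTG or GCGTG on either strand, the core letters bound by hypoxia-inducible factors (HIFs). Positions of a match give its first letter, in bases before the start. The windows are chr16:17928220-17928469 on the minus strand for Slc25a1, chr11:100528001-100528250 on the minus strand for Acly, chr2:155517793-155518042 on the plus strand for Acss2, chr2:150668241-150668490 on the minus strand for Acss1 and chr11:72266605-72266854 on the minus strand for Slc13a5.
Slc25a1: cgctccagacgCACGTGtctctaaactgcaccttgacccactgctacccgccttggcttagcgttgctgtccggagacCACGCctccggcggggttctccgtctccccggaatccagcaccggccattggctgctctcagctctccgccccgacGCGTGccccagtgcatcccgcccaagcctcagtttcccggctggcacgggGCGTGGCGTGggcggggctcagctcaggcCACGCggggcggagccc
Acly: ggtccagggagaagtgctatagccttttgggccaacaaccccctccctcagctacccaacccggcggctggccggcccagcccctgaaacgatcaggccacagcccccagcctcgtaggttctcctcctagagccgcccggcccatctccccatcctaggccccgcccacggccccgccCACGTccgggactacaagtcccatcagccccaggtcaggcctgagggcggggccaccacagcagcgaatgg
Acss2: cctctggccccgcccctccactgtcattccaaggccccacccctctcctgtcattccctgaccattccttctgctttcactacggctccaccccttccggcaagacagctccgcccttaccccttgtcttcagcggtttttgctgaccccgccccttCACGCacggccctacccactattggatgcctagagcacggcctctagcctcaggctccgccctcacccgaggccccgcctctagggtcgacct
Acss1: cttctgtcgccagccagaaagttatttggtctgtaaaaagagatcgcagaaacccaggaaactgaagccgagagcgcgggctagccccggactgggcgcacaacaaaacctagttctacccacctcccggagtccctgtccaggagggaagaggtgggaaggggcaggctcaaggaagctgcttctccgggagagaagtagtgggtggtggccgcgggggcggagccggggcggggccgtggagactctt
Slc13a5: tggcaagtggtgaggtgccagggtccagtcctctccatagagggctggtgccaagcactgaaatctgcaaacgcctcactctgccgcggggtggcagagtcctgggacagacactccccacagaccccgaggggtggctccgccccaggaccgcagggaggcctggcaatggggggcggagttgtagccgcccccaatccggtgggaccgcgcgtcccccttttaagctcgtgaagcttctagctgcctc

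Slc25a1 had the most capitals. Its promoter held 7 matches, of which 2 were the strands of a single CACGTG at -239 from the start and 5 were GCGTG. At least 7 matches were found in 46 of 21263 coding promoters, or 0.216%. That share is for the highest count among the 10 promoters of the 8 genes. Both ACGTG and GCGTG contain a CpG, and this promoter had 25 CpGs against a median of 10 over all promoters. The share among promoters of similar CpG content was not examined. CACGTG contains ACGTG on both strands, and it was present in 6.63% of all promoters. Acly held a single ACGTG at -71, and Acss2 a single GCGTG at -93. The promoter of the inner Idh1 start had a GCGTG at -134, and the promoters of Acss1, Cs, Aco1, Slc13a5 and the outer Idh1 start had no match in these windows. Matches were therefore present in 4 of the 10 promoters annotated for the 8 genes, against 44% of all promoters, 61.7% of those with both marks and 55.8% of those with H3K4me3 alone. A match is a run of letters and not a bound site.

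Other letters were common to the whole group. GGGCGG, the GC box bound by Sp factors, occurred on either strand in 10 of the 10 promoters, between 1 and 4 times each, against 42.6% of all promoters. All 10 lay at starts with H3K4me3, and GGGCGG was in 65.1% of promoters with both marks, 61.5% of those with H3K4me3 alone and 14.2% of those with neither. CCAAT was present on either strand in 5 of 10, against 35.4%. GC content ran from 55.2% to 70.0%, highest in Slc25a1 and lowest in Cs. The promoters held from 10 to 25 CpG dinucleotides.

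The number of CpGs did not divide the 6 genes with both marks from the others. Slc25a1 had 25, Idh1 22 and 18 at its inner and outer starts, Acly 14, Acss2 and Cs 13 each, and Aco1 10. Acss1 had 15, and the promoters of Slc13a5 had 13 and 22. Across the annotation, promoters with both marks had a median of 18 CpGs (quartiles 12 to 25, n = 7568), those with H3K4me3 alone 15 (quartiles 9 to 21, n = 4619) and those with neither 2 (quartiles 1 to 5, n = 8774). The promoters of the 8 genes were all CpG-containing at levels above the upper quartile of unmarked promoters.

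**Figure D1:**
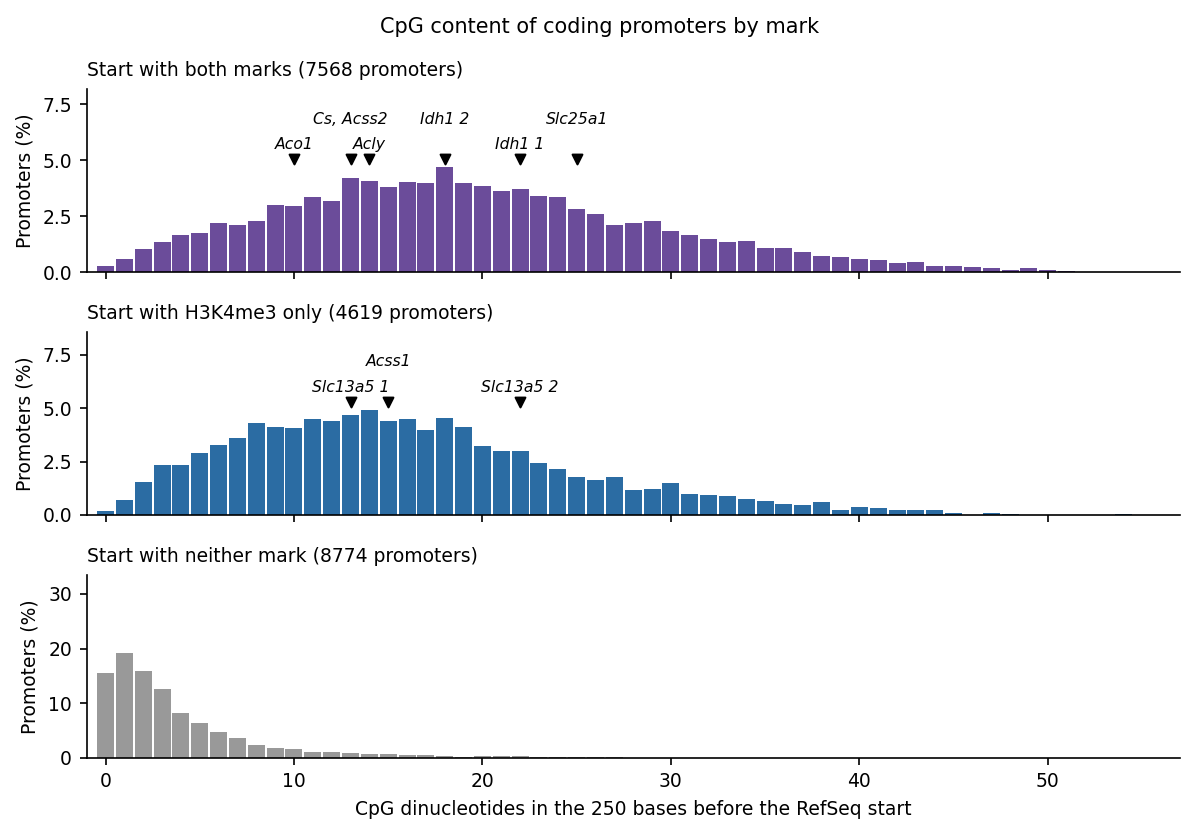
CpG dinucleotides in the 250 bases before each RefSeq start (x axis) against the share of promoters with that number (y axis, percent, with its own scale in each panel), for coding promoters with both marks, with H3K4me3 only and with neither. Triangles mark the 8 genes, with numbered names where a gene has more than 1 promoter: they lie between 10 and 25 CpGs, within the range common to both marked classes and above most unmarked promoters.

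The windows of the 8 genes held 23 distinct peak intervals, with 15 H3K27ac and 21 H3K4me3 peaks at each oxygen level. Both marks shared 13 intervals, 2 carried H3K27ac alone and 8 H3K4me3 alone. Of the 23, 13 lay on one of the 8 genes and 10 beside them, mostly at the starts of neighbouring genes. A median of 9.57% of the gene body lay under H3K27ac and 5.83% under H3K4me3, against medians of 0% and 2.23% over all protein-coding genes. In the 51 other pathway genes described below, the medians were 5.8% and 8.2%, so H3K4me3 covered less of the 8 genes than of those.

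**Figure D2:**
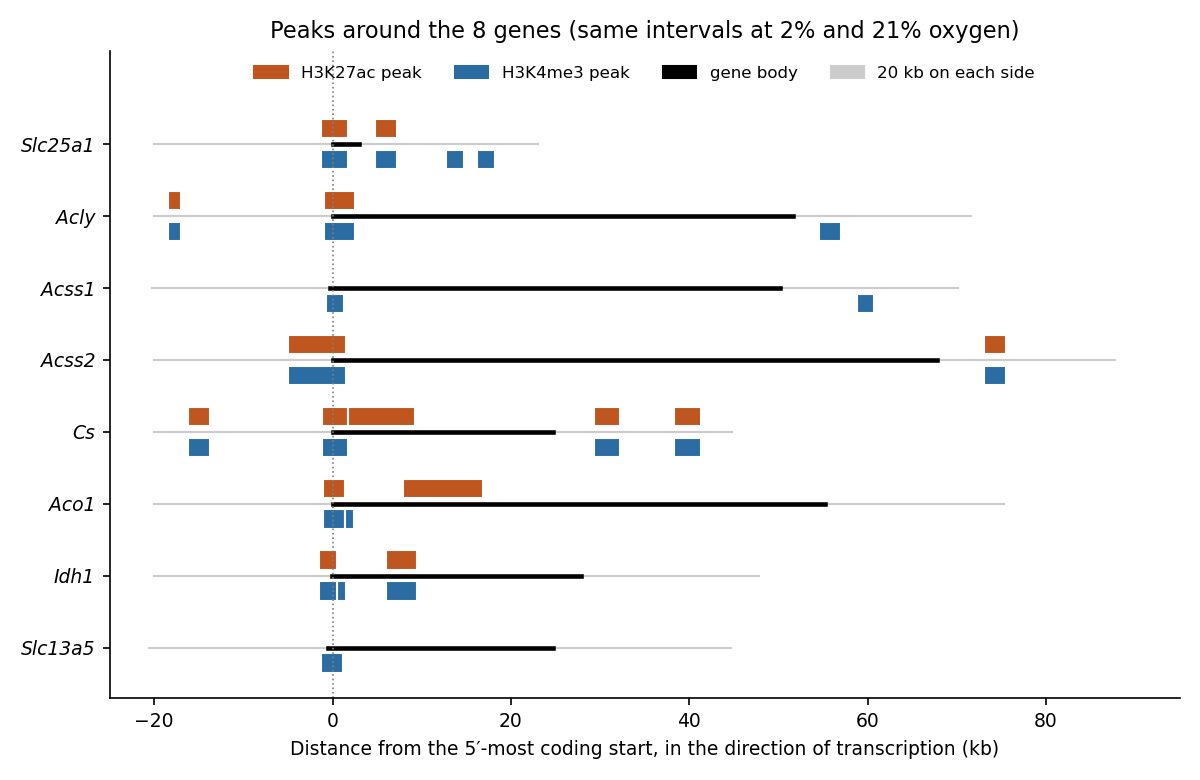
Peaks in the windows of the 8 genes, drawn to scale by distance from the 5′-most coding start in the direction of transcription (x axis, kb), with H3K27ac above and H3K4me3 below each gene body. The intervals were identical at 2% and 21% oxygen. Acss1 and Slc13a5 show H3K4me3 only, and Cs and Aco1 show broad H3K27ac peaks inside the gene.

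The deposited files give each peak a score, whose definition was not stated. Values lay between 50 and 160 or at a cap of 1000. The cap was used on some chromosomes and not on others: 3 of 20 chromosomes of the hypoxia H3K27ac list had no peak at 1000, while on another 42.2% of peaks were at 1000. Scores are therefore given as deposited and, beside them, as a rank: the percentage of H3K27ac peaks on the same chromosome and in the same list with a lower score. H3K4me3 scores were identical at both oxygen levels in all 14600 shared peaks, so they carry no information about oxygen. They are not compared between genes on different chromosomes.

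Slc25a1, the mitochondrial citrate carrier, is short, at 2997 bp and 9 exons (chr16:17925223-17928219, minus strand), and 57.4% of its body was under both marks. The peak at its start, chr16:17926501-17929500, ran from -1281 to 1718 bp relative to the start and took in exons 1 to 6. Its H3K27ac score was 118 in hypoxia and 71 in normoxia, or a rank of 54.5% and 28%. Of the 11015 shared H3K27ac peaks below the cap at both oxygen levels, 1.56% had a score lower in normoxia by as much or more. The promoter with 7 HIF core matches printed above lies at this start, and a relation between such matches and scores was not tested.

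A second Slc25a1 interval with both marks, chr16:17921001-17923500, lay 4719 to 7218 bp beyond the start, past the 3′ end of the gene. It held no coding start, and the annotation places only AA914427 there, a transcript still to be experimentally tested. Its H3K27ac score was 1000 in hypoxia and 85 in normoxia. Its rank moved from 79.9% to 40.4%, the widest rank difference in the windows of the 8 genes. Part of that difference was fixed by leaving the cap, because peaks at the cap are tied in rank. The remaining Slc25a1 intervals, at the starts of the splicing factor gene Ess2 (chr16:17910001-17912000) and the homeobox gene Gsc2 (chr16:17913501-17915500), carried H3K4me3 alone.

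Acly, the lyase that releases acetyl-CoA from exported citrate, spans chr11:100476353-100528000 on the minus strand with 28 exons. A single interval with both marks covered its start, chr11:100525501-100529000, from 1000 bp before it to 2499 bp after it. H3K27ac scored 91 there in hypoxia and 56 in normoxia, ranks of 36.6% and 9.55%. A score lower in normoxia by as much or more was found in 4.19% of shared peaks below the cap. At 56, the normoxia score was close to 50, the lowest in each list. The upstream peak at the start of the neighbour Ttc25 (chr11:100545001-100546500) scored 76 at both oxygen levels, so the difference at Acly was not shared by the next H3K27ac peak. H3K4me3 was also present at the start of Klhl11, beyond the 3′ end of Acly.

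The acetate enzymes differed in their marks. Acss2, which works in the cytosol and nucleus, spans chr2:155517948-155585724 on the plus strand. A 6500 bp interval with both marks, chr2:155513001-155519500, held its start and that of the divergent gene Ggt7, so the marks cannot be assigned to one of them. H3K27ac scored 61 at both oxygen levels, ranks of 13.5% and 14.9%. Downstream of Acss2, the peak at the start of Gss, the glutathione synthetase gene (chr2:155591001-155593500), scored 1000 in hypoxia and 111 in normoxia.

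Acss1, the mitochondrial enzyme (chr2:150618105-150668500, minus strand), had 1 peak on the gene, an H3K4me3 interval at the start (chr2:150667001-150669000) that also holds the start of the noncoding gene E130215H24Rik. The only other peak in its window was H3K4me3 at the start of Apmap. The window held 0 H3K27ac peaks at either oxygen level. The nearest hypoxia-only H3K27ac peak lay 96.0 kb away, nearest to the start of Pygb.

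Cs, which makes citrate in the mitochondrion, had the most peaks of the 8 genes (chr10:128337734-128362479, plus strand, 11 exons). Its start peak, chr10:128336501-128339500, carried both marks, with H3K27ac scores of 99 and 90 and ranks of 45.3% and 43.5%. A 7500 bp H3K27ac peak without H3K4me3 adjoined it within an intron (chr10:128339501-128347000), scoring 54 and 52, near the lowest score of the lists. Together these placed 37.4% of the gene body under H3K27ac. The starts of Cnpy2, Coq10a and Ankrd52 in the same window had both marks, with H3K27ac scores of 133 and 131, 137 and 137, and 137 and 134. Cs and its neighbours thus differed by at most 9 score units between the oxygen levels.

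Aco1, the cytosolic aconitase, which also binds iron-responsive RNA when it lacks its iron-sulphur cluster, spans chr4:40143081-40198338 on the plus strand with 21 exons. Its start peak, chr4:40142001-40144500, was at the H3K27ac cap of 1000 in both lists, the only one of the 8 genes' peaks to be so. Its ranks were 80.3% and 84.0%. A 1000 bp H3K4me3 peak adjoined it downstream (chr4:40144501-40145500). The widest peak of the group was 9000 bp of H3K27ac without H3K4me3 (chr4:40151001-40160000). It lay within an intron of Aco1, from 7920 to 16919 bp after the start, and scored 88 in hypoxia and 77 in normoxia.

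Idh1, the cytosolic isocitrate dehydrogenase that makes NADPH, spans chr1:65158616-65186500 on the minus strand and has coding starts at positions 65186479 and 65179181. The peak at the inner start, chr1:65177001-65180500, carried both marks, with an H3K27ac score of 1000 in hypoxia and 116 in normoxia, ranks of 84.9% and 58.8%. The peak at the outer start, chr1:65186001-65188000, scored 133 and 110, ranks of 61.9% and 55.3%. It also holds the start of the lipid kinase gene Pikfyve, on the other strand. An H3K4me3 peak without H3K27ac, chr1:65185001-65186000, adjoined it inside the gene. Both starts of Idh1 thus had the lower score in normoxia.

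Slc13a5, the sodium-coupled citrate importer (chr11:72241989-72267222, minus strand), had a single peak in its window. H3K4me3 covered its start at chr11:72265501-72268000, an interval that also holds the start of the noncoding gene 1700051A21Rik. The H3K4me3 score of 103 had a rank of 9.27% on chromosome 11, where the Acly start peak was at the cap. No H3K27ac was called at either oxygen level. The nearest normoxia-only H3K27ac peak was 466 kb away, the shortest such distance among the 8 genes.

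Set side by side, 11 of the 15 H3K27ac peaks had a lower score in normoxia than in hypoxia, 4 were equal and 0 were higher. Among all 14614 shared H3K27ac peaks, 39.9% were lower in normoxia and 16.6% higher. Among the 7276 of these that overlapped H3K4me3, as 13 of the 15 did, 35.4% were lower and 6.18% higher. At the transcription starts of the 6 genes with H3K27ac, 5 of 7 peaks were lower and 2 equal, the equal ones being at Acss2 and Aco1. Of 7709 start peaks of all genes, 37.2% were lower. The lists pool both libraries, so whether these differences exceed the spread between replicates is unknown.

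The size of the differences was uneven. Of the 11 peaks below the cap in both lists, the normoxia score minus the hypoxia score had a median of -3 and ran from -47 to 0, while the median over all such shared peaks was 0 (quartiles -7 to 0). The lowest values were those at the starts of Slc25a1 and Acly, and the next was that at the outer start of Idh1, with -23. A further 3 peaks went from the cap to below it, at the Slc25a1 downstream interval, the Gss start and the inner Idh1 start. The remaining 1, at the Aco1 start, was at the cap in both lists. Of 3372 shared peaks at the cap in hypoxia, 797 (23.6%) were below it in normoxia.

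Ranks gave a similar picture, but they are drawn from the same scores and are not separate support. Within each chromosome and list, 11 of the 15 peaks ranked lower in normoxia and 4 higher, with a median difference of -3.41 percentage points. The 11 were those with the lower score, and the 4 were those with equal scores. Over all shared peaks the median was 1.92 points and 33.1% ranked lower. A rank lower by at least 10 points was found for 5 of the 15 peaks (33.3%), against 16.3% of all shared peaks and 18.3% of those that overlapped H3K4me3. These 5 were both Slc25a1 peaks with H3K27ac, the Acly start, the Gss start and the inner Idh1 start. When ranked over the whole list, 9 of the 15 were lower (60%) and 6 higher, against 30.3% lower among all shared peaks and 26.9% among those that overlapped H3K4me3. By this rank 6 of the 15 were lower by at least 10 points (40%), against 15.4% of all shared peaks and 16.8% of those that overlapped H3K4me3.

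**Figure D3:**
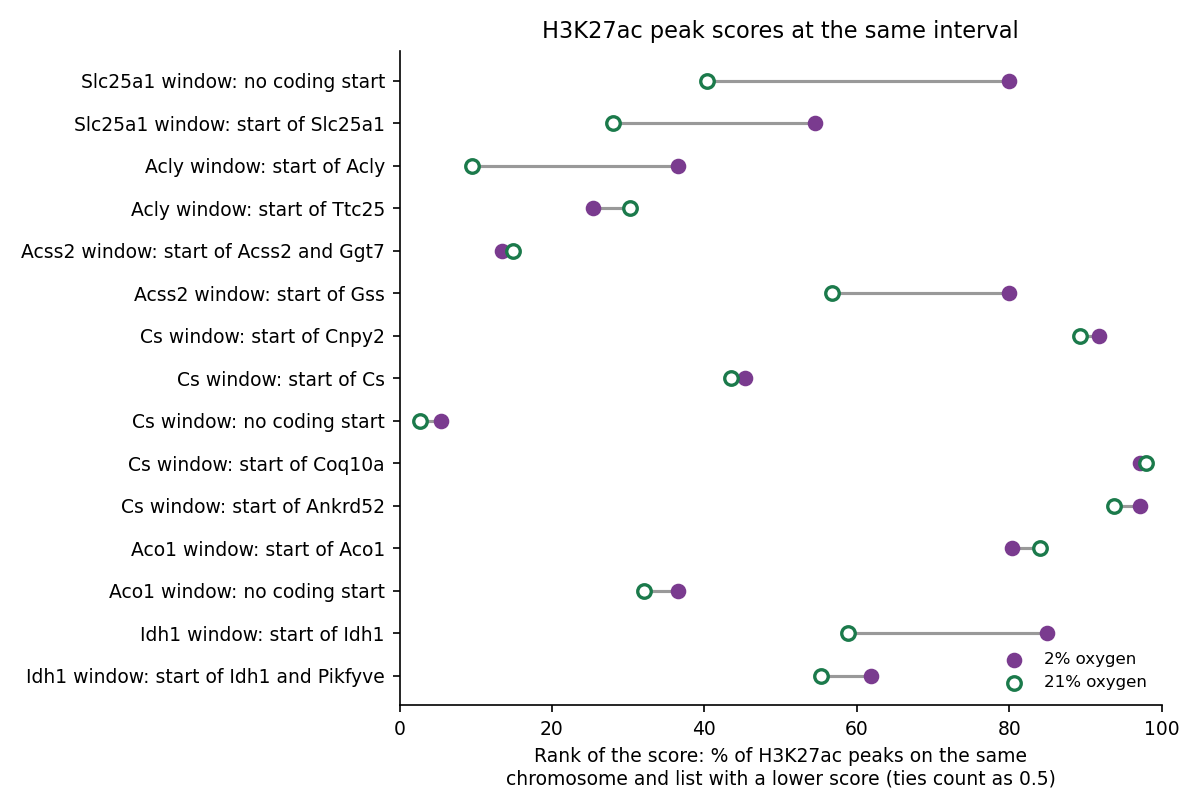
Rank of the H3K27ac score of each of the 15 peaks in the windows of the 8 genes (x axis, percentage of H3K27ac peaks on the same chromosome and list with a lower score) at 2% oxygen (filled circles) and 21% oxygen (open circles). Each point is 1 peak of a pooled list, so there are no error bars. The 5 longest lines, at Slc25a1, Acly, Gss and Idh1, all run towards a lower rank at 21% oxygen. At the Slc25a1 downstream, Gss and inner Idh1 peaks, which left the score cap, tied ranks fixed part of the length. The Acss2 and Aco1 start peaks rank slightly higher at 21% oxygen, with equal scores at both levels.

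Peaks called at only 1 oxygen level were then located outside the windows. The nearest hypoxia-only H3K27ac peak to Slc25a1 was 32.7 kb away, at chr16:17890501-17892500, with a score of 79 and Dgcr2 as the nearest start. For Acly it was 331 kb away, nearest to the start of Stat5a, and for Cs 161 kb away, nearest to Rbms2. The distance exceeded 1000 kb for Acss2, Aco1, Idh1 and Slc13a5. The median over the 8 genes was 711 kb, against 986 kb over all genes, and for normoxia-only peaks 3884 kb against 3696 kb.

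The other enzymes and carriers of the pathway were read by the same rules, as 51 genes in 6 lists. Both marks were at a start in 35 of the 51, H3K4me3 alone in 11 and H3K27ac alone in 1, the acetyl-CoA carboxylase gene Acaca. Slc13a3 and Acacb had neither, and Me2 and Slc25a10 differed between oxygen levels. Both marks were present in 10 of 13 genes of pyruvate entry (the pyruvate carrier, pyruvate dehydrogenase and its kinases and phosphatases), 5 of 8 of the mitochondrial citrate cycle, 2 of 2 cytosolic malate enzymes, 8 of 12 on other acetyl routes such as carnitine and ketone bodies, 5 of 9 that use acetyl-CoA in lipids and 5 of 7 sterol and sugar sensors. The share in the 8 genes, 75%, lay between those of the 13 pyruvate entry genes (76.9%) and the 7 sensors (71.4%). Over all protein-coding genes it was 35.8%.

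**Figure D4:**
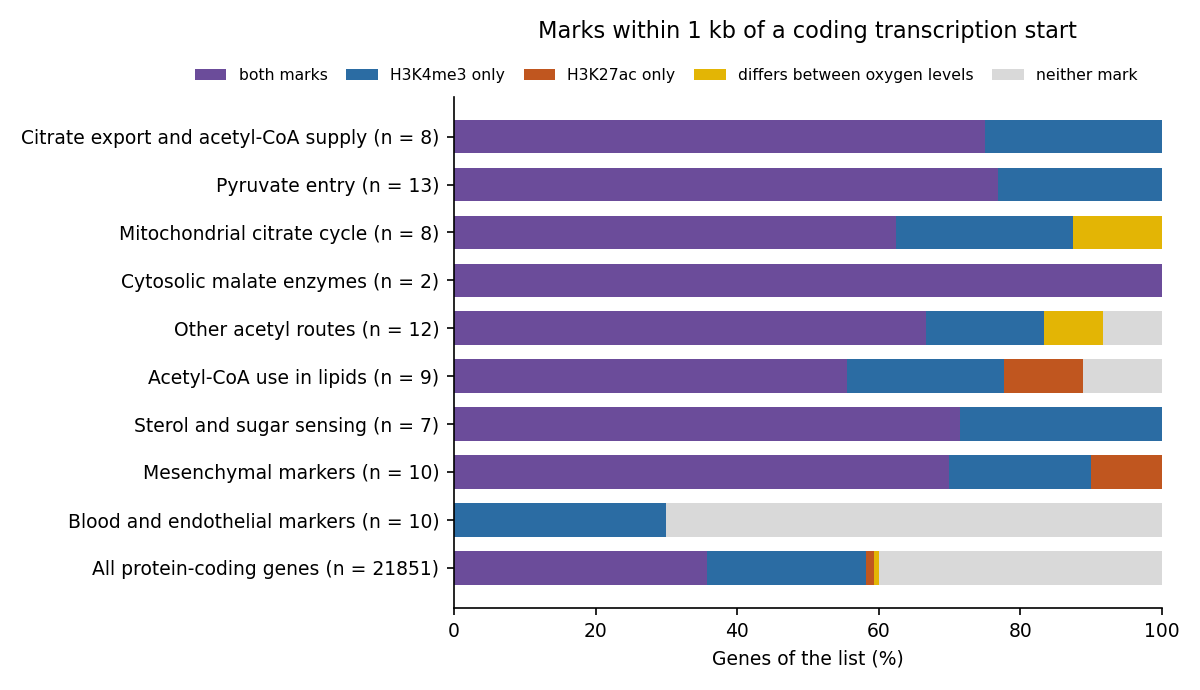
Share of the genes of each list (x axis, percent) by the marks within 1 kb of a coding transcription start, with the number of genes of each list in brackets. Of the 8 genes, 75% had both marks and 25% H3K4me3 only, while over all protein-coding genes 35.8% had both marks and 39.9% neither. The blood and endothelial markers had no start with H3K27ac.

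Of the 51 genes, 4 had a hypoxia-only H3K27ac peak in their window, and 0 had a normoxia-only one. The difference between 0 of 8 and 4 of 51 was not tested, and 4.68% of all genes had such a peak. At Me2, the mitochondrial malic enzyme, it covered the start and scored 61. At Slc25a10, the dicarboxylate carrier, it covered the start (chr11:120491001-120493500) and scored 62. Fasn, the fatty acid synthase gene, had one 22.6 kb from its start (chr11:120797001-120801500) with a score of 106. Srebf1, which encodes a transcription factor of lipid synthesis genes, had one 2.9 kb from its start (chr11:60223501-60224000) with a score of 66. It directly adjoined the Srebf1 start peak called at both oxygen levels (chr11:60218501-60223500), so it was not a site apart from that peak. The peaks at Me2, Slc25a10 and Srebf1 had low ranks among the H3K27ac peaks of their chromosomes, at 12.6%, 14% and 17.7%, and that at Fasn ranked at 45.3%.

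Start peaks of the wider pathway were set beside those of the 8 genes, of which 5 of 7 (71.4%) had the lower score in normoxia. Of 38 shared H3K27ac start peaks of the 51 genes, 18 had a lower score in normoxia (47.4%), 19 were equal and 1 was higher, that of the oxoglutarate carrier gene Slc25a11 (131 and 133). Over all genes 37.2% were lower. By list, the lower score was in normoxia for 4 of 6 start peaks of genes that use acetyl-CoA in lipids (66.7%) and 3 of 5 of the mitochondrial citrate cycle (60%). It was so for 1 of 2 of the cytosolic malate enzymes, 3 of 7 of the sensors (42.9%), 4 of 10 of pyruvate entry (40%) and 3 of 8 on other acetyl routes (37.5%). The following were singled out after their values were seen. In the pyruvate dehydrogenase complex, Dlat went from 1000 in hypoxia to 116 in normoxia. The mitochondrial counterpart of Idh1, Idh2, went from 1000 to 121, a difference across the cap like that at the inner Idh1 start. Mdh2 scored 133 and 96. Among genes of lipid synthesis, Fasn scored 130 and 97 at its start and Hmgcs1 1000 and 77. Pdk1, a kinase that restrains pyruvate entry and a known hypoxia-responsive gene, scored 103 at both oxygen levels.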

How the data were processed

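ChIP-seq of 2 histone marks and input was made from MSCs at 2 oxygen levels in 12 libraries, 8 for the marks and 4 inputs. The authors' methods give mapping to mm10 by bowtie2, duplicate removal by Picard, and peak calls by the differential mode of chromstaR (bins of 1000 bp, steps of 500 bp). Bowtie2 and Picard also stand in the submitters' processing notes, with versions not given. The authors deposited 4 peak lists, 1 per mark and oxygen level, each pooling 2 libraries, with a score per peak of unstated definition. Joint calling can give both oxygen levels the same boundaries.

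From these lists, peaks sharing at least 1 bp with a gene body or 20000 bp on either side were counted in Python 3.11.15 (pandas 2.3.3, numpy 2.4.6, matplotlib 3.10.9). A peak was hypoxia-only or normoxia-only where it shared no base with the other list of its mark. A start carried a mark where a peak lay within 1000 bp of the start of a coding transcript (GENCODE M21, basic set). Motifs were sought on both strands of RefSeq promoters (GRCm38.p6), which matched all 8 genes. The counting was checked on simulated peaks. No peak ran past a chromosome end.

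The genes, lists and rules were chosen with earlier results of these data known. The rule for named genes took the 8, the genes whose starts lie in peaks of their windows, and list genes with a peak at only 1 oxygen level. Cell type markers came from a list, of which a few were named by their values. The other genes named, such as single list genes with a given mark or score and the starts nearest to peaks outside the windows, were picked once their values had been seen. The rank within a chromosome was added after the use of the score cap by chromosome was seen. Input and sequencing depth were not analysed here. The alternatives were other windows, other overlap and joining rules, leaving out low scores, and ranks in place of scores. Some results on single genes of the lists are not reported here.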

Additional observations from a re-analysis of the deposited data

How the results depend on the processing

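Windows of 50000 bp raised the counts from 15 to 25 H3K27ac peaks and from 21 to 36 H3K4me3 peaks, since more sequence was read. They also brought in 1 hypoxia-only H3K27ac peak where the 20000 bp windows held 0, the one 32.7 kb from Slc25a1. Leaving out the lowest-scoring 25% of each list also gave 1 hypoxia-only peak, at the Acly start, whose normoxia score of 56 fell among those left out. This setting left 4 of the 8 genes with H3K27ac at a start, against 6, and 6 with H3K4me3, against 8. Shares over all protein-coding genes are given only for the full lists and 20000 bp windows. Whether these changes differ from those of other genes was not examined. The other planned settings kept every count within 1.5 times its value. The rule that 50% of a peak be covered could change nothing, because peaks that overlapped between lists were identical intervals. Of the alternatives added after the data were seen, a score difference of at least 5 left 8 peaks lower in normoxia, against 11, and ranks over the list 9. The share of all shared peaks that pass the cut of 5 is not given here. Over the 11015 shared peaks below the cap the lower quartile of the difference was -7, so such falls were common among all peaks. No paired analysis was possible because each list pools both libraries of its group, and for the same reason leaving out each library was not possible. Without values per library, the lists cannot show how far a score moves between replicates, and the fixed boundaries of 500 bp limit position.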
